A study of Agaricus blazei with 33 samples.

Results

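The grown mushroom was set against the vegetative hyphae it forms on, in Agaricus blazei strain JA, a cultivated basidiomycete. The comparison took the 3 libraries labelled as whole fruit bodies at the harvest stage and the 3 labelled as mycelia, chosen by these labels and not by their values, so that 6 of the 33 libraries of the series entered it. Strain JA is a heterokaryon, which the study grew on compost, and the mycelia were taken 20 days after casing, the layer of soil laid on the compost. All 12 libraries used here came from this one strain, and the labels name no altered gene and no agent for any of them. The 3 libraries each of harvest pilei (the caps) and harvest stipes (the stalks) were set against the same mycelia libraries, so these comparisons share their reference and are given side by side. Nothing in the labels says whether the 3 replicates of a group are separate cultures, so the p-values measure the spread between these libraries, which may be technical. The sources used here do not give the days after casing of the harvest stage.

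Vegetative hyphae of a litter-decomposing mushroom such as this one grow through the compost, digest plant polymers outside the cell and take up the products. The fruit body is a differentiated organ built from the same hyphae, with an air-exposed surface, a cap whose gills carry the basidia in which nuclei fuse and meiosis takes place, and a stipe that lifts the cap. Hydrophobins, small secreted proteins that coat aerial hyphae, multicopper oxidases of the laccase type and tyrosinases, which oxidize phenols, are families known in mushrooms for members used in one of these states and not in the other.

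The values are the deposited FPKM, reads scaled to gene length and to a size for each library, for 10337 genes on 33 contigs of the JA-15036 assembly. Of these genes, 6116 carry a Pfam domain description, on which all gene groups here rest, and 4221 carry none. The reads on genes, recovered from these values, numbered from 16827724 to 18174829 in harvest fruit bodies, from 15573864 to 18003024 in pilei, from 16551970 to 20736935 in stipes and from 16245219 to 17909367 in mycelia. The size that each library was divided by was not this number of reads. Its ratio to the reads was 0.890 to 0.924 in mycelia and 0.876 to 0.959 in stipes. In fruit bodies the ratio was 0.927 to 1.06, and in pilei 1.14 to 1.22. Values of log2(FPKM + 0.1) were tested with limma where the mean over the libraries compared reached 0.5 FPKM. Called genes had an adjusted p under 0.05 together with a log2 fold change of 1 or more in either direction. On this scale the change of genes with few reads is understated. With 3 libraries a group, the smallest p of an exact permutation test is 0.1, and the adjusted p-values borrow the spread of all genes.

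Of 9424 genes tested, 3690 (39.2%) were called between harvest fruit bodies and mycelia, 1386 (14.7%) higher and 2304 (24.4%) lower in fruit bodies. Libraries of fruit bodies and mycelia did not overlap for 6420 genes (68.1%), against 72.9% of genes for pilei and mycelia, 66.5% for stipes and mycelia and 66.4% for pilei and stipes. In pilei, 1537 genes (16.2%) were higher and 2201 (23.2%) lower than in mycelia (39.4% of 9497 called), and in stipes 1296 (13.8%) were higher and 2128 (22.6%) lower (36.4% of 9405 called). Between pilei and stipes, 1644 genes were higher and 1469 lower in pilei (33.6% of 9272 called). The split between higher and lower depended on the scaling. With quantile normalization the counts were 2062 higher and 1784 lower in fruit bodies, 2114 and 1814 in pilei, and 1854 and 1676 in stipes, each against mycelia. With library totals they were 2453 higher and 1697 lower in pilei against mycelia, and 2414 and 984 in pilei against stipes. Over all genes, the median log2 difference of fruit bodies from mycelia became 0.21 with quantile normalization, against -0.05 as deposited, and that of pilei became 0.34 with library totals, against -0.03. Over the 34 gene lists described below, 17 of the 68 counts of members called higher or lower in fruit bodies moved by more than 1.5 times with quantile normalization and 6 with library totals. RNA was taken from whole tissue, so that fewer cells of a type and less RNA per cell cannot be told apart.

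The 3 fruit body libraries were not equally close to the caps. Across genes, the correlation of log2 values with the pilei libraries was 0.957 to 0.981 for fruit body replicate 1, 0.895 to 0.931 for replicate 2 and 0.917 to 0.956 for replicate 3, while with mycelia it was 0.738 to 0.764 for all 3. Genes are not independent replicates, and these values describe the libraries only. Whether the share of cap tissue differed between the fruit body libraries was not tested. The share of summed FPKM in ribosomal protein genes, given with that list, was likewise highest in replicate 1 and lowest in replicate 2.

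Of the 5 most abundant transcripts of the mushroom, 3 were at low levels in the hyphae and the others, A07675 and A08574, were high in both. A StringTie gene model without a described domain (contig 14, 246480 to 247356) had 24595, 39819 and 29758 FPKM in harvest fruit bodies, against 8.82, 7.52 and 4.40 FPKM in mycelia. This was the largest rise, a log2 fold change of 12.16 (SE 0.30, adjusted p = 1.92e-06). Its level in the parts was 3629, 12625 and 512 FPKM in pilei and 22382, 23613 and 21174 FPKM in stipes, so that even the lowest pileus library lay above every mycelia library. A05194 had 23515, 26909 and 26118 FPKM in harvest fruit bodies, against 9.85, 21.5 and 5.93 FPKM in mycelia, a rise of 11.19 (SE 0.43, adjusted p = 5.71e-06). It too is undescribed, and lies 228 bp from A05193 (contig 25, 155459 to 157692), a multicopper oxidase of the laccase type on the opposite strand, with the ends of the 2 genes facing each other. A05193 had 2215, 1432 and 2721 FPKM in harvest fruit bodies, against 0.604, 2.395 and 0.677 FPKM in mycelia, a rise of 10.85 (SE 0.50, adjusted p = 1.15e-05). The log2 fold changes against mycelia were 9.70 in pilei and 9.83 in stipes for A05194, and 10.16 in pilei and 8.81 in stipes for A05193. All libraries of the 3 harvest tissues lay above those of mycelia for both neighbours.

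A pair of further abundant genes of the mushroom were split between its parts. A02061 had 5479.8, 9218 and 7084 FPKM in harvest fruit bodies, against 5.78, 6.85 and 6.37 FPKM in mycelia. A02061 (contig 15, 1085863 to 1088080) holds the central domain of tyrosinase, the copper enzyme that starts melanin synthesis from phenols, and rose by 10.11 (SE 0.21, adjusted p = 1.38e-06). It had 2363, 4004 and 1890.1 FPKM in pilei and 17631, 15675 and 16493 FPKM in stipes, with every stipe library above every whole fruit body library and these above every pileus library. A06219 had 12653, 5916 and 2412 FPKM in harvest fruit bodies, against 3.595, 8.41 and 4.43 FPKM in mycelia. A06219 (contig 2, 2097501 to 2098029) is a hydrophobin, and rose by 10.08 (SE 0.60, adjusted p = 2.55e-05). It was a cap gene, with 17997, 10739 and 28412 FPKM in pilei and 112, 122 and 887 FPKM in stipes, and the difference of pilei minus stipes was 6.26 (SE 0.80, adjusted p = 0.000588). The fruit body libraries differed widely for this gene, highest in replicate 1 and lowest in replicate 3.

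The other genes among the 10 largest rises were A07015, A07020, A04850, a StringTie model and A09824. The first 4 of these have no described domain. A07015 had 5969, 7735 and 5489 FPKM in harvest fruit bodies, against 1.0004, 3.64 and 1.26 FPKM in mycelia (log2 fold change 11.80), and the 3 fruit body libraries exceeded the 1277, 4389 and 792 FPKM of pilei and the 462, 369 and 545 FPKM of stipes. A07020 had 2014, 4859.8 and 3849 FPKM in harvest fruit bodies, against 6.23, 15.8 and 4.57 FPKM in mycelia (log2 fold change 8.75). A07020 was higher in stipes than in pilei, with 7296, 3749.8 and 4002 FPKM in stipes and 215, 1226 and 122 FPKM in pilei. A04850 had 111, 52.2 and 72.4 FPKM in harvest fruit bodies, against 0, 0.201 and 0.217 FPKM in mycelia, where 2 reads over the 3 mycelia libraries were all that was counted, a ratio of 562 with an exact 95% counting interval of 156 to 4643. A04850 was a gene of the caps, with 37.2, 66.9 and 56.1 FPKM in pilei and 0.221, 0.1695 and 4.68 FPKM in stipes. The reverse held for the StringTie model (contig 29, 50108 to 52409), with 21.8, 45.6 and 179 FPKM in fruit bodies, 2.28, 3.79 and 4.77 FPKM in pilei and 304, 120.1 and 636 FPKM in stipes, against 0.0291, 0.0303 and 0.228 FPKM in mycelia. The glutamine synthetase A09824 is described with its neighbours.

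**Figure D1:**
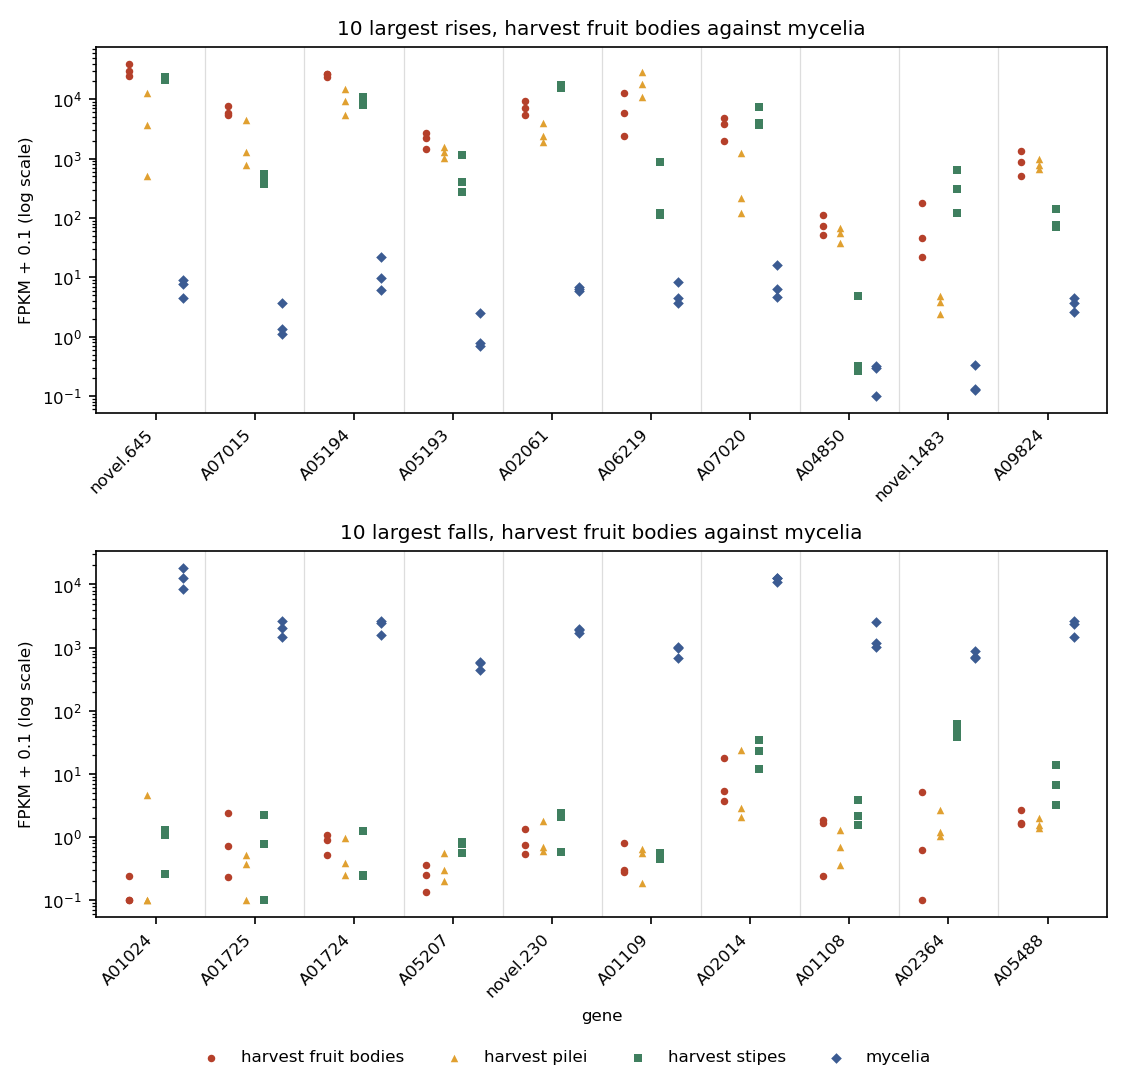
FPKM + 0.1 on a log axis for the 10 genes with the largest rises (top) and the 10 with the largest falls (bottom) in harvest fruit bodies against mycelia, each point 1 library, with 3 libraries each of harvest fruit bodies, pilei, stipes and mycelia. Fruit body and mycelia points do not overlap, which was a condition for the choice of these genes. The stipe points of A04850 reach down to mycelia, and for the falls every pileus and stipe point also lies below every mycelia point.

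The 5 highest genes of the hyphae were all lower in the mushroom. A01132, which has no described domain, was the most abundant mycelial gene, with 37.6, 140.3 and 67.9 FPKM in fruit bodies, against 35428, 40455 and 29937 FPKM in mycelia, a log2 fold change of -8.94 (SE 0.46, adjusted p = 1.5e-05). A StringTie model without a described domain (contig 1, 4084660 to 4085253) was among the 10 largest falls, with 1.25, 0.442 and 0.655 FPKM in fruit bodies, against 1950.3, 1729 and 1913 FPKM in mycelia (-11.15), and so was A02364, also undescribed, with 0.537, 0 and 5.07 FPKM in fruit bodies, against 683, 893 and 712 FPKM in mycelia (-10.10). A01994 had 38.7, 46.1 and 28.3 FPKM in harvest fruit bodies, against 12375, 12244 and 23206 FPKM in mycelia. A01994 (contig 15, 779759 to 780705) holds the GPR1/FUN34/yaaH domain, known in yeast from acetate and ammonium transport, and fell by 8.68 (SE 0.31, adjusted p = 4.96e-06). In the parts its log2 fold changes were -9.16 in pilei and -8.13 in stipes. The undescribed A10021 had 3788, 4591 and 1143 FPKM in fruit bodies, against 26089, 31199 and 29644 FPKM in mycelia. It was retained at 3975, 2898 and 5420.3 FPKM in pilei and was at 89.3, 109.8 and 83.4 FPKM in stipes. A06999, also undescribed, showed the opposite pattern in the parts, with 171, 282 and 323 FPKM in fruit bodies, 34.01, 34.9 and 94.7 FPKM in pilei and 7122, 6781 and 2091 FPKM in stipes, against 10595, 13856 and 14322 FPKM in mycelia. Its fall in stipes (-1.46) lost its call without any 1 mycelia library (-1.60, -1.40 and -1.38 without replicates 1, 2 and 3) and without stipe replicate 3 (-0.88). A08574, undescribed, was among the 5 highest genes of fruit bodies, with 5650.2, 7863 and 7743 FPKM there, against 10276, 11435 and 13828 FPKM in mycelia. The difference met neither the fold nor the adjusted p required for a call (-0.75, SE 0.34, adjusted p = 0.0927).

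Most hydrophobin genes were lower in the mushroom, while A06219, the highest of them there, rose. Of 25 hydrophobin genes 23 were tested, of which 18 were lower and 2 higher in fruit bodies (24.4% and 14.7% of all genes), with a median log2 fold change of -5.22 against -0.05 over all genes. The median was the same with the 1 member without a read in fruit bodies set at its bound. Under the scalings tried the count of lower members was 16 to 18. Against mycelia, 19 of 23 tested were lower and 3 higher in pilei (23.2% and 16.2% over all genes). In stipes 17 of 23 tested were lower and 3 higher (22.6% and 13.8% over all genes).

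A01024 had 0.146, 0 and 0 FPKM in harvest fruit bodies, against 12559, 18351 and 8585 FPKM in mycelia. A01024 (contig 12, 956225 to 956694) was the most abundant hydrophobin of hyphae. Over the 3 fruit body libraries 1 read was counted, against 223846 reads in mycelia, a ratio of 270704 with an exact 95% counting interval of 48586 to 1.07e+07. The fitted log2 fold change of -16.51 depends on the pseudocount at so few reads and is no bound. Its levels were 0, 0 and 4.59 FPKM in pilei and 0.966, 1.19 and 0.157 FPKM in stipes. A01724 and A01725, which lie 1862 bp apart on contig 14 in the same orientation, went down together. A01724 had 0.427, 0.979 and 0.806 FPKM in harvest fruit bodies, against 2609, 1566 and 2416 FPKM in mycelia (-11.39 on the log2 scale), and A01725 had 0.135, 0.617 and 2.29 FPKM in fruit bodies, against 2614, 1476 and 2051 FPKM in mycelia (-11.40).

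Most hydrophobin genes lie in runs along the assembly. Contig 5 holds 11 of them over 52.7 kb, contig 12 holds 5 over 100.6 kb and contig 14 holds 4 over 21.3 kb, and in these runs 9, 4 and 4 members were lower and none higher in fruit bodies. In the run on contig 5, A07656 had no read in any library of fruit bodies, pilei or stipes, against 44.5, 28.6 and 137 FPKM in mycelia, at least 443-fold lower in fruit bodies when 3 reads over the group are taken as the floor. Its neighbour A07660 stayed measurable, with 68.1, 299 and 69.9 FPKM in fruit bodies, against 4627, 3300.1 and 4856 FPKM in mycelia (-5.22, SE 0.56, adjusted p = 0.000311). A07658 of the same run behaved otherwise. It had 27.1, 35.3 and 333 FPKM in fruit bodies, 10.4, 12.1 and 12.5 FPKM in pilei and 30225, 17843 and 8298 FPKM in stipes, against 123, 139.5 and 202 FPKM in mycelia. This gene (contig 5, 525220 to 525657), singled out after its values were seen, was called higher in stipes (6.77, SE 0.46, adjusted p = 2.39e-05), lower in pilei (-3.69, SE 0.20, adjusted p = 8.06e-06) and not called in whole fruit bodies (-1.15, SE 0.88, adjusted p = 0.292). The mean of whole fruit bodies was 0.702% of the mean of stipes.

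Outside the runs the hydrophobins differed from each other. The cap hydrophobin A06219 on contig 2 rose as given above. A04048 on contig 1 was the other riser, at a low level, with 1.51, 2.42 and 2.22 FPKM in fruit bodies, against 0.175, 0 and 0 FPKM in mycelia (3.91, SE 0.53, adjusted p = 0.000782), and 1 read behind the value in mycelia. A08707 on contig 7 was high in both, with 2440.1, 3164 and 5170.2 FPKM in fruit bodies, against 1906, 2474 and 2094 FPKM in mycelia, and was not called (0.67, SE 0.33, adjusted p = 0.113). In both parts every library lay below mycelia. The log2 fold change was -0.94 in pilei (adjusted p = 0.00573, under the fold for a call) and -1.15 in stipes (adjusted p = 0.0424, called lower). The call in stipes was lost without stipe replicate 1 (-1.17) or 2 (-0.72) and without any 1 mycelia library. A01532 on contig 13 was lower, with 16.7, 14.0 and 122 FPKM in fruit bodies, against 166, 426 and 1251 FPKM in mycelia (-3.86, SE 0.99, adjusted p = 0.0125), a wide spread within both groups. It was lower in pilei (-5.15) and in stipes (-2.20) too, where the call was lost without stipe replicate 1 (-2.15) or 3 (-2.04) and without mycelia replicate 2 (-2.24). The summed level of the family moved less than its median. It took 1.84%, 0.994% and 0.920% of the summed FPKM in fruit bodies, 2.68%, 1.62% and 3.77% in pilei and 3.51%, 2.17% and 1.40% in stipes, against 2.89%, 3.18% and 2.45% in mycelia.

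The laccase-type multicopper oxidases exchanged members. All 20 were tested, of which 9 were lower and 5 higher in fruit bodies, with a median log2 fold change of -0.86. These shares, 45% and 25%, stand beside 24.4% and 14.7% over all genes. A05207 had 0.261, 0.0374 and 0.148 FPKM in harvest fruit bodies, against 576, 435 and 602 FPKM in mycelia (-11.17, SE 0.35, adjusted p = 3.19e-06). A04922 had 2.29, 2.19 and 1.94 FPKM in harvest fruit bodies, against 977, 1132 and 655 FPKM in mycelia (-8.65, SE 0.22, adjusted p = 1.92e-06). A01869 had 0.132, 0.113 and 0.0747 FPKM in fruit bodies, against 277, 264 and 104.8 FPKM in mycelia (-9.91 on the log2 scale). All 3 were low in the parts as well, with log2 fold changes of -10.68, -7.15 and -10.26 in pilei and of -9.55, -7.24 and -8.71 in stipes, in the same order. A04923, 1633 bp from A04922 on the same strand, moved the other way.

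A04923 had 4129.6, 5252 and 2786 FPKM in harvest fruit bodies, against 815, 927 and 586 FPKM in mycelia, a rise of 2.36 (SE 0.31, adjusted p = 0.000667). It had the highest mean of the laccase-type genes in fruit bodies and in pilei, but not in stipes, where A05193 averaged 604 FPKM and A04923 321 FPKM. It was at 1733, 1921 and 1730.3 FPKM in pilei and 275, 276 and 411 FPKM in stipes, so that it was higher in pilei (1.23) and lower in stipes (-1.28) than in mycelia. The family took 0.748%, 0.720% and 0.632% of the summed FPKM in fruit bodies, 0.412%, 0.423% and 0.434% in pilei and 0.0813%, 0.0763% and 0.192% in stipes, against 0.282%, 0.278% and 0.211% in mycelia. The remaining risers A06818 and A06810 had log2 fold changes of 1.43 and 2.08. A03362, at 1.04, lost its call without fruit body replicate 2 (0.96) and without mycelia replicate 3 (0.99), and the fall of A01864 (-1.15) was lost without fruit body replicate 3 (-0.99) and without mycelia replicate 1 (-0.998).

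Of the 5 tyrosinases 3 were higher and 2 lower (60% and 40%, beside 14.7% and 24.4% over all genes), with 1 lower when any library but fruit body replicate 2 was left out. A02012 had 30.2, 40.2 and 21.7 FPKM in harvest fruit bodies, against 9618, 8025 and 7121 FPKM in mycelia. A02012 (contig 15, 847471 to 849568), the tyrosinase of hyphae, fell by 8.10 (SE 0.25, adjusted p = 3.19e-06), and its neighbour A02014, an undescribed gene 1903 bp away on the other strand, fell with it. A02014 had 5.28, 17.7 and 3.59 FPKM in fruit bodies, against 12793, 12740.3 and 11011 FPKM in mycelia (-10.75 on the log2 scale). A02061 and A02012 both lie on contig 15. A00406 rose by 4.05 (SE 0.30, adjusted p = 5.98e-05), with 1909.6, 3109.6 and 1953 FPKM in fruit bodies, against 151, 176 and 95.3 FPKM in mycelia, and A08292 by 1.94 (SE 0.34, adjusted p = 0.00257). A08292 was a gene of the caps, with log2 fold changes against mycelia of 2.42 in pilei and -0.82 (not called) in stipes. The fall of A02039 (-1.56) was lost without fruit body replicate 1 (-1.31) or 3 (-1.18) and without each of mycelia replicates 1 (-1.52), 2 (-1.83) and 3 (-1.34), and its libraries overlap.

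**Figure D2:**
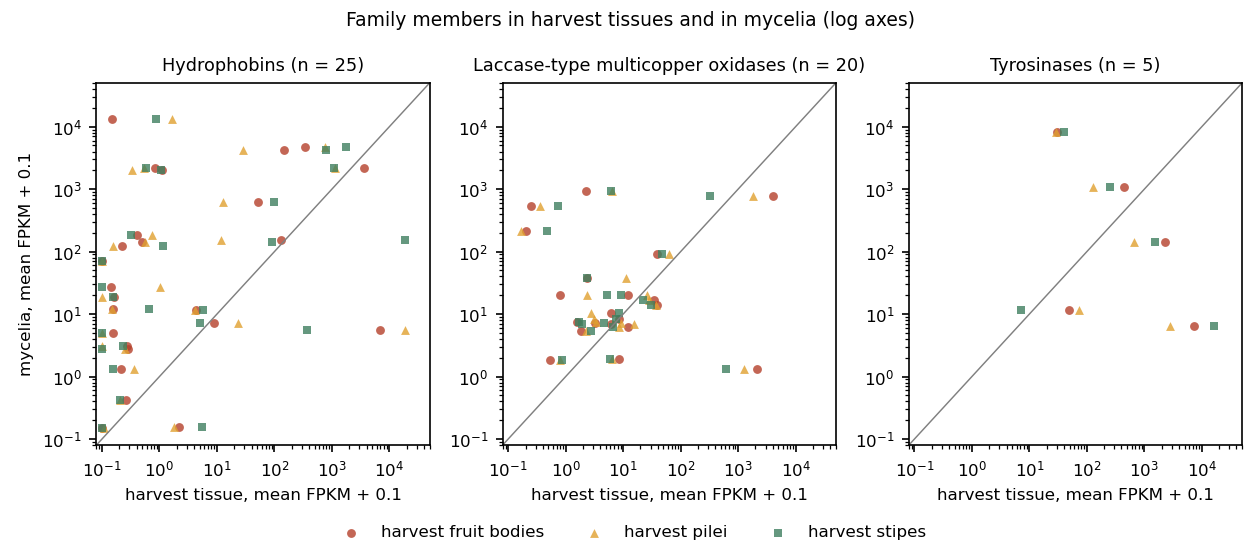
Mean FPKM + 0.1 of each gene in a harvest tissue (x, log axis) against mycelia (y, log axis) for 25 hydrophobins, 20 laccase-type multicopper oxidases and 5 tyrosinases, with 1 point for each of harvest fruit bodies, pilei and stipes, means of 3 libraries. Points above the grey line of equality are higher in mycelia. Most hydrophobins lie above it, while A06219, A05193 and A02061 lie at the lower right.

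Several pairs of like genes that lie close together were called in opposite directions. The glutamine synthetases A09824 and A09826, which add ammonium to glutamate, lie on contig 9 with 4565 bp and 2 uncalled genes between them. A09824 had 864, 1329 and 515 FPKM in harvest fruit bodies, against 3.58, 4.42 and 2.55 FPKM in mycelia, a rise of 7.89 (SE 0.36, adjusted p = 1.15e-05). A09826 had 139.7, 300.1 and 63.2 FPKM in harvest fruit bodies, against 3148, 3264 and 2938 FPKM in mycelia, a log2 fold change of -4.49 (SE 0.51, adjusted p = 0.000369). In the parts the log2 fold changes were 7.82 in pilei and 4.69 in stipes for A09824, and -5.37 in pilei and -6.37 in stipes for A09826, each against mycelia. Both genes were named on the condition that libraries of fruit bodies and mycelia do not overlap.

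A run of 6 cytochrome P450 genes on contig 28, all on the minus strand and with 1 other gene before the last, held calls of both signs. Its members A05457 and A05458 were higher, A05456, A05459 and A05460 lower, and A05455 was not called. A05457 had 221, 359 and 253 FPKM in fruit bodies, against 23.3, 23.2 and 17.9 FPKM in mycelia (3.67, SE 0.21, adjusted p = 2.47e-05). A05460 had 2.82, 1.53 and 2.96 FPKM in fruit bodies, against 970.4, 769 and 899 FPKM in mycelia (-8.49, SE 0.26, adjusted p = 3.19e-06). A05458 had 118, 110.1 and 235 FPKM in fruit bodies, against 5.57, 5.37 and 4.19 FPKM in mycelia (4.83 on the log2 scale). P450 enzymes are known to add oxygen to sterols, fatty acids and foreign compounds, and the roles of these 6 are not known here. The middle genes A05456 and A05459 were added after their values were seen, with log2 fold changes of -3.47 and -7.51. A07014, a ricin-type lectin with 5.49, 0.642 and 0.317 FPKM in fruit bodies, against 64.4, 137 and 187 FPKM in mycelia (-6.62), lies 2745 bp from A07015, which rose, with 1 gene between them.

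**Figure D3:**
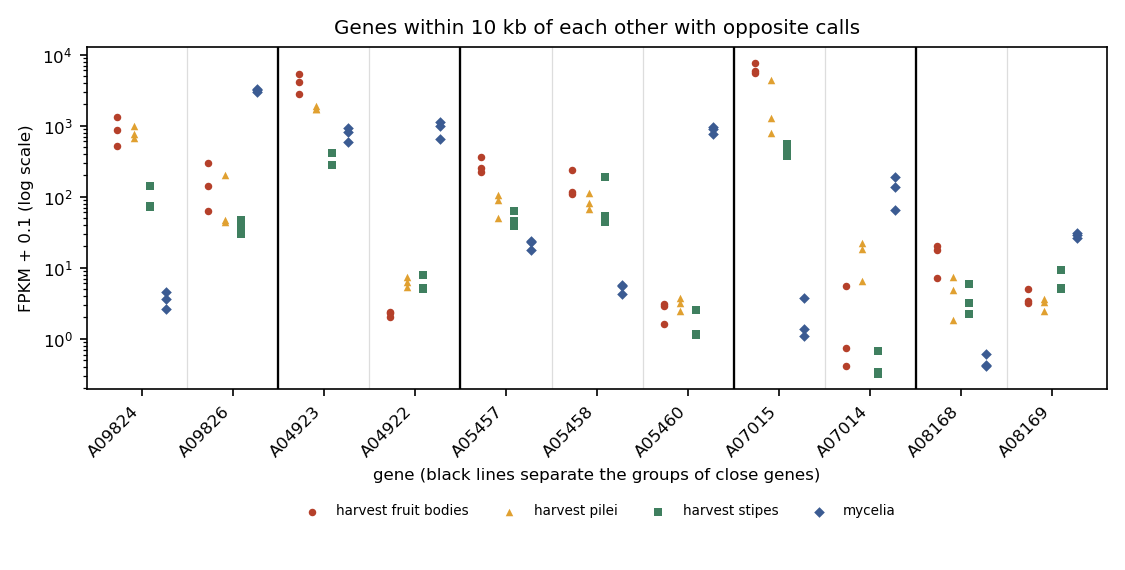
FPKM + 0.1 on a log axis for 5 of the groups of named genes that lie less than 10 kb apart and have opposite calls in harvest fruit bodies against mycelia, each point 1 library of harvest fruit bodies, pilei, stipes or mycelia, 3 of each. In each group the mycelia points lie below those of fruit bodies for A09824, A04923, A05457, A05458, A07015 and A08168 and above them for A09826, A04922, A05460, A07014 and A08169. The genes were named on the condition that these points do not overlap.

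The 34 gene lists by description differed widely in the share of their members called. The shares called higher ranged up to 73.3% for histones (11 of 15) and 66.7% for sterol synthesis (6 of 9), beside 14.7% over all genes. The shares called lower ranged up to 78.3% for hydrophobins (18 of 23), 48.3% for cytochrome P450 (70 of 145), 46.4% for lectins and secreted surface proteins (13 of 28), 45% for laccase-type multicopper oxidases (9 of 20) and 42.7% for antioxidant and glutathione proteins (35 of 82), beside 24.4% over all genes. These shares describe the lists and are no test of them. Genes without a description, 3628 of those tested, were higher in 602 and lower in 1021 cases.

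**Figure D4:**
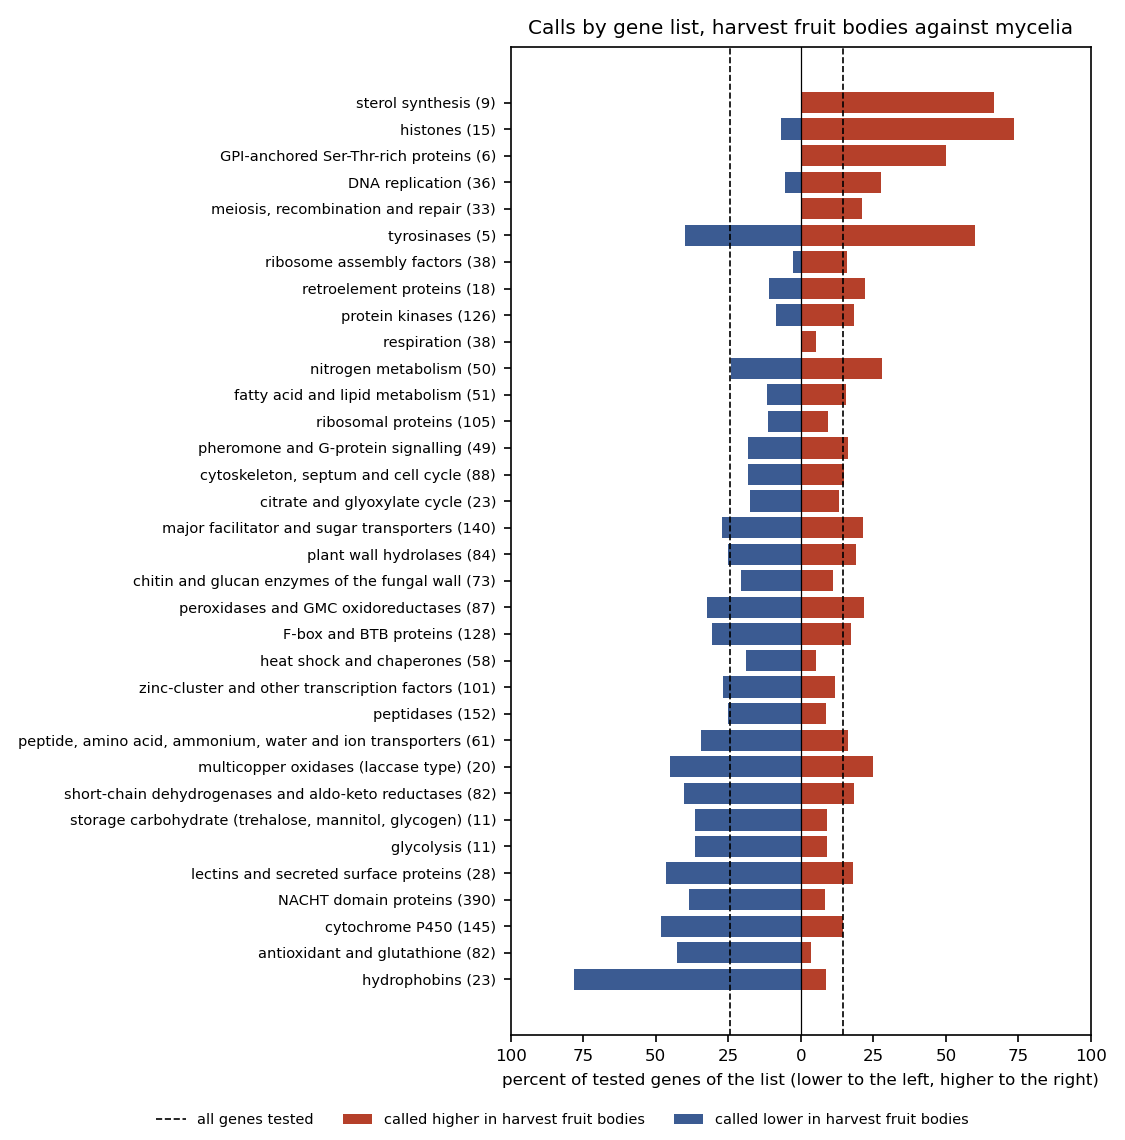
Percent of the tested genes of each of the 34 lists that were called higher (to the right) or lower (to the left) in harvest fruit bodies against mycelia, with the number tested in parentheses. Dashed lines mark 14.7% and 24.4%, the shares over all 9424 genes tested. Sterol synthesis and histones extend farthest to the right and hydrophobins farthest to the left.

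Most of the sterol synthesis genes tested were called higher in the mushroom. Of 9 tested, 6 rose, 0 fell and 3 were not called, with a median log2 fold change of 1.56, and the same counts were found under every scaling tried. A02216 holds the squalene-hopene cyclase domains shared with lanosterol synthase, which closes the sterol ring system. A02216 had 244, 231 and 205 FPKM in harvest fruit bodies, against 28.5, 30.6 and 31.2 FPKM in mycelia (2.90, SE 0.13, adjusted p = 9.94e-06). A07806 of the ERG4/ERG24 family of sterol reductases had 267, 188 and 206 FPKM in fruit bodies, against 41.2, 52.04 and 42.1 FPKM in mycelia (2.28, SE 0.18, adjusted p = 7.75e-05). The sterol methyltransferase A08445 rose by 2.09 (SE 0.18, adjusted p = 0.000122), the squalene epoxidase A07666 by 2.06 (SE 0.21, adjusted p = 0.000244), the squalene/phytoene synthase A07651 by 1.56 and a further ERG4/ERG24 gene, A00804, by 1.27. The groups did not overlap for any of the 6, which was a condition for naming A02216, A07806 and A08445. In pilei 5 of 9 were higher (median 1.06, 16.2% over all genes) and in stipes 2 of 9 (median 0.61, 13.8% over all genes), where the 2 include A08445, whose call there was lost without stipe replicate 1 (0.95) or 3 (0.83) and without mycelia replicate 1 (0.89).

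Septin genes, which encode filament proteins at the sites of septa, are a part of the cytoskeleton and cell cycle list and were no list of their own. Of the 7 septin genes, 5 were called higher and 0 lower. A09260 had 1132, 869 and 1248 FPKM in fruit bodies, against 155, 162 and 167 FPKM in mycelia (2.73, SE 0.18, adjusted p = 3.5e-05), A02460 rose by 1.96 (SE 0.21, adjusted p = 0.000296) and A06770 by 1.68 (SE 0.17, adjusted p = 0.000224). In the parts the log2 fold changes were 2.35 in pilei and 2.01 in stipes for A09260, 1.78 in pilei and 1.43 in stipes for A02460 and 2.35 in pilei and 1.67 in stipes for A06770. Other members of the cytoskeleton and cell cycle list went down, such as the actin gene A00709 with 33.2, 23.1 and 17.4 FPKM in fruit bodies, against 154, 140.3 and 143 FPKM in mycelia (-2.61, SE 0.23, adjusted p = 0.000135), and A06265, a cyclin, at -2.87 (SE 0.27, adjusted p = 0.000169). Of the 88 members of the whole list tested, 13 were higher and 16 lower (14.8% and 18.2%), beside 14.7% and 24.4% over all genes.

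Of the 6 Ser-Thr-rich proteins with a predicted GPI anchor, surface proteins of unknown role, 3 were higher and 0 lower (1 lower without fruit body replicate 2). Over all genes 14.7% were higher and 24.4% lower. A07675 (contig 5, 579975 to 580453) was among the 5 highest genes of fruit bodies. A07675 had 19560.4, 10682 and 21158 FPKM in harvest fruit bodies, against 2366, 3191 and 2881 FPKM in mycelia (2.56, SE 0.37, adjusted p = 0.00109). It had 13901, 18522 and 11329.8 FPKM in pilei and 279.9, 374 and 1963 FPKM in stipes, a difference of pilei minus stipes of 4.60 (SE 0.70, adjusted p = 0.00123). A06939 had the reverse preference. It had 629, 1529 and 1236 FPKM in fruit bodies, 554, 755 and 476 FPKM in pilei and 7632, 6045 and 5046 FPKM in stipes, against 129, 116 and 101.2 FPKM in mycelia, with log2 fold changes of 3.21, 2.35 and 5.74. A03293 rose by 1.64 (SE 0.26, adjusted p = 0.0016). The 6 genes together took 3.40%, 2.37% and 3.64% of the summed FPKM in fruit bodies, against 0.828%, 0.878% and 0.722% in mycelia.

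Of 73 genes of the list of chitin and glucan enzymes of the fungal wall, 8 were higher and 15 lower, with a median of 0.00. The list holds proteins that make, cut, modify or bind wall polymers. These shares, 10.96% and 20.5%, are near the 14.7% and 24.4% over all genes, and the genes named here are single members of the list. A09963, of the SKN1 family needed for beta-glucan in yeast, had 327, 396 and 389.6 FPKM in fruit bodies, against 28.4, 21.5 and 18.4 FPKM in mycelia (4.04, SE 0.19, adjusted p = 1.17e-05). The chitin synthase A01137 rose by 2.38 (SE 0.13, adjusted p = 2.26e-05) and the LysM protein A00184, of a domain that binds chitin, by 2.48 (SE 0.21, adjusted p = 0.000105). All 3 were higher in both parts, with log2 fold changes of 3.71, 2.16 and 2.40 in pilei and of 3.23, 1.49 and 1.60 in stipes. The LysM protein A01109 and the polysaccharide deacetylase A01108, an enzyme class that turns chitin into chitosan, were mycelial. A01109 had 0.176, 0.202 and 0.699 FPKM in harvest fruit bodies, against 1028, 685 and 989 FPKM in mycelia (-11.09, SE 0.41, adjusted p = 5.43e-06). A01108 had 1.57, 1.802 and 0.142 FPKM in fruit bodies, against 1021, 1184 and 2572 FPKM in mycelia (-10.64, SE 0.79, adjusted p = 6.44e-05). With quantile normalization 15 members of the list were higher and 14 lower.

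Enzymes of the families with which hyphae attack plant polymers held calls of both signs. Of 84 plant wall hydrolases, 16 were higher and 21 lower (19.0% and 25%), close to the 14.7% and 24.4% over all genes. Of 87 peroxidases and GMC oxidoreductases, 19 were higher and 28 lower (21.8% and 32.2%). The cutinase A04388, which cleaves the plant cuticle polymer, had 5.32, 5.39 and 2.62 FPKM in fruit bodies, against 125, 113 and 145 FPKM in mycelia (-4.87, SE 0.29, adjusted p = 2.65e-05). A StringTie model of the family 43 glycosyl hydrolases (contig 14, 303213 to 306921) had a log2 fold change of -6.01, but overlaps a gene on the other strand, and the sources used here do not give the strand setting of the counting. A07333, of family 79, and A03525, of the xylanase family 10, rose by 4.81 (SE 0.29, adjusted p = 2.9e-05) and 3.83 (SE 0.30, adjusted p = 8.56e-05), at levels of 8.76, 13.2 and 9.11 FPKM and 14.2, 13.8 and 23.8 FPKM in fruit bodies, against 0.246, 0.223 and 0.344 FPKM and 0.855, 1.44 and 1.03 FPKM in mycelia. GMC oxidoreductases such as A02375 (5.27), A01663 (4.85) and A08168 (4.84) rose, while A03058 of the same family (-5.45) and the family 2 peroxidases A08660 (-4.38) and A03073 (-5.82) fell. A03073 had 2.06, 1.604 and 1.68 FPKM in fruit bodies, against 42.4, 68.2 and 406 FPKM in mycelia, highest by far in mycelia replicate 3. The glyoxal oxidase A04984, a copper enzyme that makes hydrogen peroxide, had 238, 229.7 and 329 FPKM in fruit bodies, against 9.96, 12.01 and 8.42 FPKM in mycelia (4.69, SE 0.20, adjusted p = 8.71e-06).

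Among lectins and secreted surface proteins, 13 of 28 were lower and 5 higher (46.4% and 17.9%, beside 24.4% and 14.7% over all genes). A08842, described as a fungal fruit body lectin, was a gene of the hyphae here. A08842 had 4.13, 4.45 and 7.84 FPKM in harvest fruit bodies, against 539, 397 and 300.3 FPKM in mycelia (-6.23, SE 0.30, adjusted p = 1.37e-05), and the log2 fold changes in the parts were -6.36 in pilei and -5.74 in stipes. A04731, a cerato-platanin, a small secreted protein, had 22.2, 23.1 and 23.2 FPKM in fruit bodies, against 709, 811 and 1426 FPKM in mycelia (-5.35, SE 0.26, adjusted p = 1.27e-05). Its libraries of all 3 harvest tissues lay between 17.1 and 30.2 FPKM. In the other direction, the CFEM protein A08999, of a cysteine-rich domain of fungal surface proteins, had 1443, 1178 and 1292 FPKM in fruit bodies, against 184, 151 and 119.6 FPKM in mycelia (3.12, SE 0.20, adjusted p = 3.32e-05).

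Most histone genes were called higher in the mushroom and in its cap, and none in its stipe. Histones package new DNA and are made mostly while DNA is copied. Of 15 genes, 11 were higher and 1 lower in fruit bodies (median 1.21) and 11 were higher and 2 lower in pilei (median 1.21), while in stipes 0 were higher and 1 lower (median -0.18). Over all genes, 14.7% were higher and 24.4% lower in fruit bodies, 16.2% and 23.2% in pilei, and 13.8% and 22.6% in stipes. Between pilei and stipes 11 were higher and 1 lower in pilei. The linker histone A04600 had 1949, 1401 and 2641 FPKM in fruit bodies, 1229, 2297 and 1707 FPKM in pilei and 414, 251 and 844 FPKM in stipes, against 420.1, 523 and 579 FPKM in mycelia. Its log2 fold changes were 1.94 (SE 0.27, adjusted p = 0.000902) in fruit bodies, 1.75 in pilei and -0.18 in stipes. The core histones A02197 and A00415 rose by 1.90 (SE 0.31, adjusted p = 0.00189) and 1.52 (SE 0.27, adjusted p = 0.00272). A02277, a core histone gene at a low level, was the 1 called lower in fruit bodies. A02277 had 3.58, 1.47 and 3.02 FPKM in harvest fruit bodies, against 79.8, 67.4 and 83.8 FPKM in mycelia (-4.87, SE 0.32, adjusted p = 3.97e-05), and it was lower in pilei (-3.92) and stipes (-5.67) too. The abundant core histone A03344 was the other gene called lower in pilei, with 958, 1139 and 1224 FPKM in fruit bodies and 865, 1105 and 956 FPKM in pilei, against 2039, 1996 and 1899.8 FPKM in mycelia. Its log2 fold change was -1.03 (SE 0.18, adjusted p = 0.00165) in pilei, where the call was lost without pilei replicate 1 (-0.94) and with library totals (-0.65), voom (-0.65) or quantile normalization (-0.60). In fruit bodies it was -0.84 (SE 0.19, adjusted p = 0.00751), under the fold required for a call, though all 3 libraries lay below mycelia. The rises of A04679 (1.06) and A09863 (1.19) in fruit bodies lost their calls without fruit body replicate 3 (0.86 and 0.99), that of A04679 also without mycelia replicate 2 (0.99), and the description of A09863 joins a histone to a nucleoporin domain. The histone list took 2.55%, 1.62% and 3.002% of the summed FPKM in fruit bodies, against 0.893%, 0.927% and 0.970% in mycelia.

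The DNA replication list likewise held calls for higher levels in pilei and none in stipes. In fruit bodies 10 of 36 were higher and 2 lower (median 0.72), in pilei 21 higher and 0 lower (median 1.14) and in stipes 0 higher and 4 lower (median -0.35), beside the same shares over all genes as for the histones. With quantile normalization 17 were higher in fruit bodies. The replicative helicase subunit A01367, of the MCM family, had 55.7, 38.8 and 47.5 FPKM in fruit bodies, 65.5, 62.8 and 62.7 FPKM in pilei and 18.7, 17.3 and 21.4 FPKM in stipes, against 19.9, 17.2 and 17.1 FPKM in mycelia. It rose by 1.37 (SE 0.17, adjusted p = 0.000602) in fruit bodies and by 1.81 in pilei, and was not called in stipes (0.08). The small chain of ribonucleotide reductase, A05581, which makes deoxynucleotides, rose by 1.38 (SE 0.26, adjusted p = 0.0031) in fruit bodies. Genes of meiosis, recombination and repair were higher in 7 of 33 cases and lower in 0 (21.2% and 0%, beside 14.7% and 24.4% over all genes, median 0.34). In pilei 13 were higher and 0 lower (median 0.91, beside 16.2% and 23.2% over all genes). In stipes 1 was higher and 3 lower (median -0.12, beside 13.8% and 22.6% over all genes). A04098, of the Rad21/Rec8 family that holds sister chromatids together, had 77.6, 117 and 29.4 FPKM in fruit bodies, against 2.22, 4.19 and 2.62 FPKM in mycelia (4.42, SE 0.50, adjusted p = 0.000385). It had 113, 87.8 and 139 FPKM in pilei and 4.54, 5.96 and 5.67 FPKM in stipes, and pilei exceeded stipes by 4.36 (SE 0.20, adjusted p = 2.12e-05). A HORMA domain gene (contig 2, 1761239 to 1765024), of a family on meiotic chromosome axes, rose by 2.73 (SE 0.30, adjusted p = 0.000349), with log2 fold changes of 3.76 in pilei and 2.44 in stipes. Between pilei and stipes, 27 replication genes and 18 meiosis and repair genes were higher in pilei and 0 of either were lower (17.7% and 15.8% over all genes).

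More ribosomal protein genes were called higher than lower in the cap, and more lower than higher in the stalk. Of 106 genes, all but 1 of them tested, 10 were higher and 12 lower in fruit bodies (median -0.33), 25 higher and 0 lower in pilei (median 0.84), and 4 higher and 42 lower in stipes (median -0.66). The shares over all genes were 14.7% and 24.4% in fruit bodies, 16.2% and 23.2% in pilei and 13.8% and 22.6% in stipes. In pilei 60 were higher and 0 lower than in stipes. Their share of the summed FPKM was 3.45%, 1.66% and 2.46% in fruit bodies, 6.57%, 5.40% and 8.12% in pilei and 1.82%, 1.52% and 2.03% in stipes, against 3.26%, 2.69% and 2.87% in mycelia. The count in fruit bodies was not stable. It was 32 lower without fruit body replicate 1, 3 without replicate 2, 6 without replicate 3, 5 without mycelia replicate 1 and 4 without mycelia replicate 3, and 2 to 4 with library totals or quantile normalization, so no direction is given for whole fruit bodies. Replicate 1, the fruit body library closest to pilei, had the highest ribosomal share and replicate 2 the lowest. The 3 genes with the largest rises, A01354 (1.42), A00281 (1.39) and A09680 (1.38), include A09680, described as a mitochondrial ribosomal protein, and A00281, whose description joins further domains. Ribosome assembly factors, which build the subunits in the nucleolus, were higher in 6 of 38 cases and lower in 1 in fruit bodies (median 0.47, 10 higher without mycelia replicate 3, 2 and 0 lower without fruit body replicates 1 and 2), and higher in 12 and lower in 0 in pilei.

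**Figure D5:**
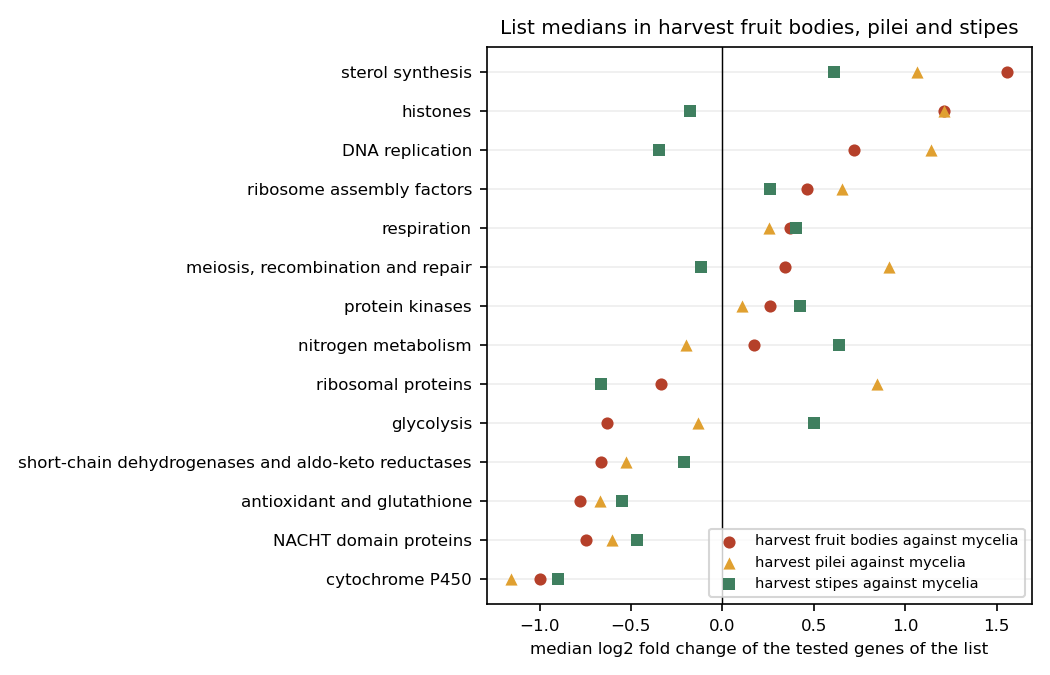
Median log2 fold change on the log2(FPKM + 0.1) scale of the tested genes of 14 lists in harvest fruit bodies, pilei and stipes, each against the same 3 mycelia libraries. Histones, DNA replication, ribosomal proteins and meiosis genes have medians above 0 in pilei and below 0 in stipes, while P450, NACHT and antioxidant lists lie below 0 in all 3. As the comparisons share the mycelia libraries, they are not independent of each other.

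In 3 lists of detoxification and redox enzymes, more genes were called lower than higher in the mushroom. Of 145 P450 genes, 70 were lower and 21 higher (median -0.996), and the number of lower members was 59 to 70 under the scalings tried. In pilei 73 were lower (23.2% over all genes) and in stipes 67 (22.6% over all genes). A00006 had 0.152, 0 and 0 FPKM in harvest fruit bodies, against 155, 117 and 112 FPKM in mycelia (-9.86, SE 0.40, adjusted p = 7.25e-06). Of 82 antioxidant and glutathione proteins, 35 were lower and 3 higher (median -0.78), with 31 to 35 lower under the scalings tried. Glutathione S-transferases, which couple glutathione to reactive compounds, made the largest falls of the list. A05488 had 1.55, 2.58 and 1.51 FPKM in harvest fruit bodies, against 2336, 1498 and 2668 FPKM in mycelia (-10.10, SE 0.28, adjusted p = 2.7e-06). A01638 and a StringTie model of the same family (contig 1, 842299 to 843553) fell, with log2 fold changes of -7.63 (SE 0.44, adjusted p = 2.36e-05) and -8.19 (SE 0.43, adjusted p = 1.62e-05). A04400, a further transferase, rose by 1.95 (SE 0.37, adjusted p = 0.0033), with 787, 1826 and 733 FPKM in fruit bodies, against 331, 243 and 228 FPKM in mycelia. The list took 0.778%, 0.956% and 0.7495% of the summed FPKM in fruit bodies, against 1.67%, 1.52% and 2.04% in mycelia. Short-chain dehydrogenases and aldo-keto reductases were lower in 33 of 82 cases and higher in 15, which is 40.2% and 18.3%, beside 24.4% and 14.7% over all genes.

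Transporters held calls in both directions. Of 140 major facilitator and sugar transporters, 30 were higher and 38 lower, which is 21.4% and 27.1%, beside 14.7% and 24.4% over all genes. The sugar transporter A01900 had 1112, 3196 and 1635 FPKM in fruit bodies, 252, 816 and 68.1 FPKM in pilei and 1215, 2147 and 1852 FPKM in stipes, against 14.2, 9.03 and 21.3 FPKM in mycelia. It rose by 6.997 (SE 0.44, adjusted p = 3.27e-05) in fruit bodies. A00568 and A00569, major facilitators 2827 bp apart on contig 11, fell together, with log2 fold changes of -5.73 (SE 0.39, adjusted p = 4.29e-05) and -7.21 (SE 0.27, adjusted p = 5.43e-06). Of 61 transporters of peptides, amino acids, ammonium, water and ions, 10 were higher and 21 lower (16.4% and 34.4%). The amino acid permeases A07489 (-4.70) and A08727 (-4.04) fell, and A08234 of the same family rose by 2.91 (SE 0.42, adjusted p = 0.000996). Among peptidases, 38 of 152 were lower and 13 higher (25% and 8.55%), the lower share being close to that over all genes. The lysine-specific metallo-endopeptidase A04187 had 326, 267 and 246 FPKM in fruit bodies, against 5.77, 7.68 and 6.79 FPKM in mycelia (5.35, SE 0.17, adjusted p = 3.19e-06). Another gene of this description, A08276, moved the other way, with 0.641, 15.9 and 0.968 FPKM in fruit bodies, against 169, 68.4 and 57.3 FPKM in mycelia (-5.23, SE 1.12, adjusted p = 0.0059), highest among fruit bodies in replicate 2. The subtilase A01091 fell by 6.43 (SE 0.70, adjusted p = 0.000315).

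Nitrogen metabolism had calls of both signs, 14 higher and 12 lower of 50 (28% and 24%, beside 14.7% and 24.4% over all genes). Beside the glutamine synthetases, the N-acetyltransferase A03790, of the step that opens arginine synthesis, had 443, 599 and 668 FPKM in fruit bodies, against 64.4, 68.5 and 60.2 FPKM in mycelia (3.13, SE 0.18, adjusted p = 2.37e-05). The class III aminotransferase A06322, whose description adds a cwf21 domain, rose by 2.24 (SE 0.19, adjusted p = 0.000123). Storage carbohydrate genes were lower in 4 of 11 cases (36.4%) and higher in 1 (9.09%, 2 genes without fruit body replicate 1 or mycelia replicate 3). The trehalase A06865, which splits the storage sugar trehalose, had 33.2, 53.4 and 40.9 FPKM in fruit bodies, against 412, 348 and 361 FPKM in mycelia (-3.16, SE 0.19, adjusted p = 3.01e-05), with log2 fold changes of -4.41 in pilei and -2.93 in stipes. A carbohydrate phosphorylase, A07511, the enzyme type that degrades glycogen, fell by 3.98 (SE 0.64, adjusted p = 0.00173), with 7.42, 7.15 and 5.996 FPKM in fruit bodies, against 59.01, 63.5 and 351 FPKM in mycelia. Its level in mycelia replicate 3 stood well above the other 2.

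In glycolysis 4 of 11 genes were lower and 1 higher in fruit bodies (36.4% and 9.09%, beside 24.4% and 14.7% over all genes, median -0.63). The parts did not share this. In pilei 2 were lower and 1 higher (median -0.13, beside 23.2% and 16.2% over all genes). In stipes 1 was lower and 3 higher (median 0.50, beside 22.6% and 13.8% over all genes). Hexokinase A05731, the first step, had 15.6, 28.4 and 10.2 FPKM in fruit bodies, against 69.9, 67.6 and 72.8 FPKM in mycelia (-2.08, SE 0.34, adjusted p = 0.00185), while phosphofructokinase A00667 rose by 1.36 (SE 0.18, adjusted p = 0.000783). Without mycelia replicate 1 only 1 gene of the list was lower in fruit bodies. Pyruvate kinase A03745 was at -1.17 and was then no longer called (-0.91), and triosephosphate isomerase A08550 at -1.16 lost its call without that library (-0.97) and without fruit body replicate 3 (-0.95). Of 23 genes of the citrate and glyoxylate cycle 3 were higher and 4 lower, and of 38 of respiration 2 were higher and 0 lower, with 1 higher without fruit body replicate 1 or 3 and 0 without mycelia replicate 1 or 2. Fatty acid and lipid metabolism had 8 of 51 higher and 6 lower (15.7% and 11.8%), with 5 higher without mycelia replicate 1. The acyl-CoA oxidase A07331, of the first step of peroxisomal fatty acid breakdown, had 44.7, 58.2 and 76.8 FPKM in fruit bodies, against 3.61, 5.11 and 6.07 FPKM in mycelia (3.57, SE 0.27, adjusted p = 6.63e-05), and was higher in pilei (3.40) and stipes (3.22).

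Pheromone receptors of the STE3 type sense mating pheromones at the cell surface. The neighbours A07375 and A07376, 1081 bp apart on contig 4, both rose. A07375 had 232, 118 and 434 FPKM in harvest fruit bodies, against 36.3, 46.7 and 28.4 FPKM in mycelia (2.65, SE 0.45, adjusted p = 0.00213). A07376 had 114, 72.6 and 176 FPKM in fruit bodies, against 16.2, 19.2 and 8.97 FPKM in mycelia (2.997, SE 0.39, adjusted p = 0.000659). A further receptor, A08636, rose by 1.55 (SE 0.18, adjusted p = 0.000431). In pilei and stipes the log2 fold changes were 2.44 and 2.01 for A07375, 2.55 and 1.74 for A07376 and 1.23 and 0.76 (not called) for A08636. The stipe call of A07376 was lost without mycelia replicate 1 (1.84) or 3 (1.42). A StringTie receptor model at a low level (contig 4, 1630208 to 1631885) fell by 2.75 (SE 0.67, adjusted p = 0.0102). It fell in stipes (-2.71) and was not called in pilei (-1.06). A02085 fell by 1.58 (SE 0.34, adjusted p = 0.00601). A02085 was at 7.94, 14.6 and 13.5 FPKM in fruit bodies, 1.54, 3.64 and 1.48 FPKM in pilei and 48.6, 35.6 and 57.2 FPKM in stipes, against 53.8, 29.6 and 26.5 FPKM in mycelia. G-protein alpha subunits, which relay receptor signals, included 3 large falls. A09359 had 8.52, 12.4 and 5.05 FPKM in fruit bodies, against 330.3, 360.0 and 327 FPKM in mycelia (-5.37, SE 0.30, adjusted p = 2.16e-05), and A01882 and A01884 fell, with log2 fold changes of -6.54 (SE 0.60, adjusted p = 0.000152) and -3.46 (SE 0.22, adjusted p = 3.23e-05). The Ras family gene A03682 rose by 1.85 (SE 0.19, adjusted p = 0.000239). Of the 49 genes of this list 8 were higher and 9 lower (16.3% and 18.4%, beside 14.7% and 24.4% over all genes).

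Protein kinases were higher in 23 of 126 cases and lower in 11 (18.3% and 8.73%, beside 14.7% and 24.4% over all genes, median 0.26). A06788 rose by 1.74 (SE 0.19, adjusted p = 0.000315), and A08416 fell by 3.27 (SE 0.17, adjusted p = 1.49e-05) in fruit bodies and dropped by 2.36 in pilei but was not called in stipes (-0.48). Of 103 transcription factors, of which all but a pair were tested, 12 were higher and 27 lower (11.9% and 26.7%), near the shares over all genes. The heat shock factor-type gene A05754 had 720.0, 701 and 812 FPKM in fruit bodies, 516, 610.4 and 445 FPKM in pilei and 176, 118 and 244 FPKM in stipes, against 113, 109 and 130.1 FPKM in mycelia, with log2 fold changes of 2.66 (SE 0.14, adjusted p = 1.78e-05) in fruit bodies, 2.15 in pilei and 0.55 (not called) in stipes. The zinc cluster gene A09730 fell by 5.96 (SE 0.21, adjusted p = 4.96e-06). Heat shock proteins and chaperones were lower in 11 of 58 cases (19.0%) and higher in 3 (5.17%, 5 genes without fruit body replicate 2 or mycelia replicate 2), and the small heat shock protein A08821 fell by 2.67 (SE 0.31, adjusted p = 0.000404).

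The NACHT proteins, nucleotide-binding proteins of a domain known in fungi from self and non-self recognition, were the largest list. Of 390 tested 150 were lower and 33 higher (38.5% and 8.46%, beside 24.4% and 14.7% over all genes, median -0.75). With quantile normalization 108 were lower and 57 higher (median -0.28 beside 0.21 over all genes). In pilei 142 were lower and 30 higher (23.2% and 16.2% over all genes), and in stipes 127 and 23 (22.6% and 13.8% over all genes). A08134 had 2.098, 1.44 and 5.01 FPKM in harvest fruit bodies, against 160.4, 245 and 57.2 FPKM in mycelia (-5.66, SE 0.62, adjusted p = 0.000324). A02844 was among the risers, with 32.5, 44.99 and 34.9 FPKM in fruit bodies, against 1.51, 1.66 and 0.8796 FPKM in mycelia (4.73, SE 0.28, adjusted p = 2.52e-05). Near-identical copies can share reads, and the sources used here do not say how reads with several alignments were treated, so values of single NACHT genes are uncertain. F-box and BTB proteins, among which are adaptors of ubiquitin ligases, had 22 higher and 39 lower of 133 members, not all of them tested. Of those tested, 17.2% were higher and 30.5% lower, beside 14.7% and 24.4% over all genes. With quantile normalization 35 were higher and 28 lower. The BTB genes A07493 and A07494, 1060 bp apart on contig 4, fell, with log2 fold changes of -5.98 (SE 0.47, adjusted p = 7.82e-05) and -4.45 (SE 0.45, adjusted p = 0.000235). An F-box gene (contig 6, 1434778 to 1436258) had 139, 148 and 74.5 FPKM in fruit bodies, against 0.612, 0.721 and 0.503 FPKM in mycelia (7.35, SE 0.30, adjusted p = 7.25e-06). Of 18 retroelement proteins tested 4 were higher and 2 lower (22.2% and 11.1%, with 4 genes lower without fruit body replicate 1).

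Few genes were switched on from near 0, and more were switched off. In 5 genes the mean was at least 10 FPKM in fruit bodies with every mycelia library under 0.5 FPKM, and in 51 genes the mean was at least 10 FPKM in mycelia with every fruit body library under 0.5 FPKM. Whole fruit bodies were not always between their caps and stalks. All 3 fruit body libraries lay above all 6 libraries of pilei and stipes for 529 of 9424 genes (5.61%) and below them for 537 (5.7%). A07015 is one of those above. The stipe hydrophobin A07658 did lie between its parts, above every pileus library and far below every stipe library.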

How the data were processed

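RNA of mycelia and of harvest fruit bodies, pilei and stipes was sequenced as NEBNext Ultra libraries on an Illumina instrument. Per the study's methods, the authors aligned reads with Hisat2, added gene models by StringTie, obtained read counts from featureCounts (1.5.0-p3) and deposited FPKM values. These scale each count to gene length and to a size for each library, which was not its number of reads on genes. The sources used here give neither the aligner settings nor the strand setting. The table holds 8185 Augustus and 2152 StringTie models on 33 contigs. No column of another sample was found in it.

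From the deposited FPKM, whole reads were recovered (tolerance 1e-06), which gave the reads per library and the reads behind low values. Intervals on ratios are exact 95% Poisson intervals and cover counting error only. Values of log2(FPKM + 0.1) were fitted with limma 3.58.1 in R 4.3.3 (trended prior, Benjamini-Hochberg adjustment over all genes tested), with the libraries of the 2 groups compared in each fit and no covariate. The fit was tested on simulated data. The alternatives tried were 2 other pseudocounts (1 and 0.01), 2 other filters (none, and 5 FPKM), median-ratio, quantile and library-total scaling, no trend, fits of 12 and 33 libraries, a replicate block, voom on recovered reads, and leaving out each library in turn.

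Gene lists were made from Pfam descriptions. Named genes were the 10 largest rises and 10 largest falls among called genes whose libraries did not overlap and whose mean was at least 10 FPKM in 1 group, the 5 highest genes of fruit bodies and of mycelia, and up to 3 rises and 3 falls per list by the same conditions. Other genes, among them the remaining members of described families, were added after their values were seen. The members and lists were chosen with earlier results of these data known, and 3 lists (GPI-anchored proteins, NACHT proteins, retroelement proteins) were added after the descriptions in the table were read.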

Additional observations from a re-analysis of the deposited data

Results flagged for a closer look

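For 4 of the 285 named genes and family members tested in both parts (1.4%), the caps and the stalks were called against mycelia in opposite directions, beside 170 of 9346 genes tested in both (1.82%). As each call needs a fold of its own, the difference of pilei minus stipes is large for such genes by the way they were picked, and it is given as a value and no support. For the stipe hydrophobin A07658 it was -10.46 (SE 0.42), with 10.4, 12.1 and 12.5 FPKM in pilei and 30225, 17843 and 8298 FPKM in stipes, against 123, 139.5 and 202 FPKM in mycelia. For the GPI-anchored A07675 it was 4.60 (SE 0.70). Its level was 13901, 18522 and 11329.8 FPKM in pilei and 279.9, 374 and 1963 FPKM in stipes, against 2366, 3191 and 2881 FPKM in mycelia. The fall of A07675 in stipes (-2.24) lost its call without stipe replicate 1 (-1.70) or 2 (-1.91) and without mycelia replicate 2 (-2.15) or 3 (-2.22).

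For the laccase-type A04923 the difference was 2.51 (SE 0.21), with log2 fold changes against mycelia of 1.23 in pilei and -1.28 in stipes. For A03363, also of the laccase type and at a low level, it was 3.06 (SE 0.35). A03363 had 20.9, 13.3 and 12.5 FPKM in pilei and 1.27, 1.38 and 2.87 FPKM in stipes, against 8.33, 7.499 and 4.79 FPKM in mycelia, and its rise in pilei (1.16) lost its call without pileus replicate 1 (0.93) and without mycelia replicate 3 (0.93). In whole fruit bodies A04923 and A07675 were higher than in mycelia, and A07658 and A03363 were not called.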

How the results depend on the processing

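A filter at a mean FPKM of 5 gave the fewest calls, with fewer genes tested. It left 1146 genes higher and 1710 lower of 7732 in harvest fruit bodies, 1167 and 1725 of 7829 in pilei and 1050 and 1521 of 7679 in stipes, each against mycelia, and 1116 and 1256 of 7492 in pilei against stipes. The scaling moved the split between higher and lower. In harvest pilei against mycelia, 2453 genes were called higher with library totals and 2466 with voom on recovered reads, against 1537 as deposited, and in pilei against stipes 979 were called lower with voom, against 1469. No called value of a named gene or family member changed sign under any of these alternatives. Only values already called were followed, many of them picked for large changes, so this is no support for them. The filters, the fit without a trend, the larger fits and the replicate block leave the fold change itself as it was. In harvest fruit bodies against mycelia, 12 of 234 named genes and family members lost their call with quantile normalization, 7 of 230 in a fit of 33 libraries, 4 with a pseudocount of 1, and 3 each with library totals and voom, and 2 to 9 did without 1 library. More were lost between the parts. In pilei against stipes 19 of 123 were lost with library totals, 19 with quantile normalization and 18 with voom, and up to 23 of 122 without 1 library (stipe replicate 2). In pilei against mycelia 16 of 217 were lost with library totals, 16 with voom and 14 with quantile normalization, and 1 to 13 without 1 library. In stipes against mycelia 6 of 175 were lost with quantile normalization and 4 to 11 without 1 library. Without 1 library, the count of genes called higher was 1300 to 1468 in fruit bodies, 1460 to 1550 in pilei and 1213 to 1330 in stipes, each against mycelia, and 1468 to 1818 in pilei against stipes. The counts called lower were 2100 to 2327, 2112 to 2205, 1972 to 2128 and 1325 to 1631 in the same order. The medians of 8 lists near 0 in fruit bodies, among them plant wall hydrolases, peptidases and transcription factors, changed sign with quantile normalization. Of the counts of list members in fruit bodies that moved by over 1.5 times with it, those not given with their lists include peptidases (20 higher, against 13), ribosome assembly factors (10 higher, against 6), glycolysis (2 lower, against 4) and storage carbohydrate (2 lower, against 4).

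Replicate numbers are shared between groups. The deviations of same-numbered libraries of fruit bodies and mycelia correlated at -0.038, 0.025 and 0.082, and those of replicate 3 of stipes and mycelia at 0.131. With 3 libraries a group, values this weak cannot decide whether the numbers pair libraries. With the replicate number as a block, 1385 genes were called higher and 2299 lower in fruit bodies against mycelia. Genes with few reads are limited by depth, as the wide counting intervals of A01024 and A04850 show.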

Other observations

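Single libraries of mycelia stood apart for some secreted or metabolic genes. Mycelia replicate 3 held 406 FPKM of the family 2 peroxidase A03073, against 42.4 and 68.2 FPKM in mycelia replicates 1 and 2, and 351 FPKM of the carbohydrate phosphorylase A07511, against 59.01 and 63.5 FPKM. For the hydrophobin A07656 it held 137 FPKM, against 44.5 and 28.6 FPKM. These genes were lower in all 3 fruit body libraries than in each mycelia library, which for A03073 and A07511 was a condition of their choice.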
